A study of Mus musculus with 342 samples.

Results

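CC012/GeniUnc is a Collaborative Cross mouse line, and the 8 arrays whose line label is CC012/GeniUnc were taken from the 342 liver arrays of the study. The 4 TAK-875 mice of the line received TAK-875 at 600 mg/kg once by oral gavage, and the 4 vehicle mice received 0.5% methylcellulose in water by the same route, in a volume of 10 ml/kg. All 8 were males aged about 8 to 10 weeks with no engineered allele named in the labels, and each liver was taken 24 hours after the dose. A TAK-875 mouse and a vehicle mouse formed each of 4 matched pairs, study pairs 109, 110, 111 and 112, called pairs 1 to 4 here. The other 334 arrays came from 43 other lines, each dosed in 3 or 4 such pairs, and gave the mean response and the mean vehicle level against which CC012/GeniUnc was set. The series title carries a different compound number from the sample labels, and TAK-875 is used here as labelled.

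The Collaborative Cross is a panel of recombinant inbred lines bred from genetically diverse founder strains, so mice of 1 line are near-identical genetically and lines differ widely. A line is therefore 1 genotype, and its 4 pairs measure the spread between mice of that genotype. TAK-875 (fasiglifam) activates GPR40, a receptor for fatty acids on insulin-secreting cells, and its development as a diabetes drug ended because of liver injury. In liver, fatty acids and some drugs activate PPARA, a nuclear receptor that raises genes of fatty acid oxidation. Hepatocytes also make bile acids from cholesterol through a chain of cytochrome P450 enzymes, and bile acid handling is a common subject in work on drug-induced liver injury.

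Levels are log2 expression values per probe set on Affymetrix HT MG-430 PM arrays, and a response is the TAK-875 value minus the vehicle value of a pair on that log2 scale. The 9093 genes tested were each read through the probe set with the highest mean. The array of TAK-875 mouse 4 stood apart from the others: its median was 5.75 and its median correlation with the other TAK-875 arrays of the line was 0.949. The other 3 TAK-875 arrays had medians of 5.97 to 6.08 and correlations of 0.975 to 0.984, and the 4 vehicle arrays had medians of 6.09 to 6.12 and correlations of 0.983 to 0.988. Results that rest on pair 4 are therefore given with and without it. The mean level of 19 hepatocyte markers was 12.29 to 12.40 across TAK-875 mice and 12.35 to 12.40 across vehicle mice, and no marker list of another cell type exceeded a mean of 6.80 in any of the 8 mice. Markers of stellate cells and fibroblasts averaged 5.59 to 5.84 in TAK-875 mice and 5.85 to 6.05 in vehicle mice, and the part of that shift in the results was not tested. Whole liver was profiled, so fewer cells of a type and less RNA per cell cannot be told apart.

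The first comparison asked how the liver of CC012/GeniUnc responded to TAK-875. The limma test pools the spread of pair differences within all lines, so its p does not measure the SD given after ± for a response. At a Benjamini-Hochberg adjusted p under 0.05 in limma, 65 of 9093 genes were called (0.715%). Of these, 33 were higher in TAK-875 mice (0.363% of genes) and 32 were lower (0.352%). Among the risers were Pctp, the phosphatidylcholine transfer protein, Eci1 and Acot8, enzymes of fatty acid oxidation, and Krt8, a keratin of the hepatocyte cytoskeleton. Among the genes that fell were Cyp8b1, the sterol hydroxylase that directs bile acid synthesis toward cholic acid, Pklr, the liver pyruvate kinase, Pygl, the liver glycogen phosphorylase, and Cyp2a12, a cytochrome P450 that in mice hydroxylates steroids and bile acids.

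All 65 called genes moved in 1 direction in all 4 pairs, and in 59 of them the TAK-875 and vehicle mice did not overlap. Over all 9093 genes, 1013 had groups that did not overlap (11.1%), 1171 were higher in all 4 pairs (12.9%) and 1356 were lower in all 4 (14.9%). The median size of the 65 responses was 0.74 log2, with 6 rises and 7 falls of at least 1 log2. Most calls lay near the threshold, since 40 of 65 had an adjusted p over 0.04, while 1370 genes (15.1%) had an unadjusted p under 0.05. Without pair 4, 2 genes were called, and without pair 2, 0 were called, although 562 and 882 genes then had an unadjusted p under 0.05. Without pair 1, 36 genes were called, and without pair 3, 25 were called. All 65 kept their sign in each of these fits, which follows from their shared direction in all 4 pairs. The pair differences did not all resemble each other, with correlations across genes of 0.62 between pairs 2 and 4, 0.46 between pairs 1 and 3 and -0.02 between pairs 1 and 4. Genes are not independent replicates in these correlations.

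The balance of rises and falls depended on array scaling. Arrays centred on their medians gave 66 rises and 12 falls (84.6% higher), and a second quantile normalization gave 43 rises and 27 falls (61.4% higher), against 50.8% higher as deposited. Centring moved every response of the line up by 0.13 log2. By number of genes called, CC012/GeniUnc stood 16th of 44 lines, with CC041/TauUnc at the top with 1403. By the SD of its responses across genes, 0.3375 log2, it stood 11th.

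**Figure D1:**
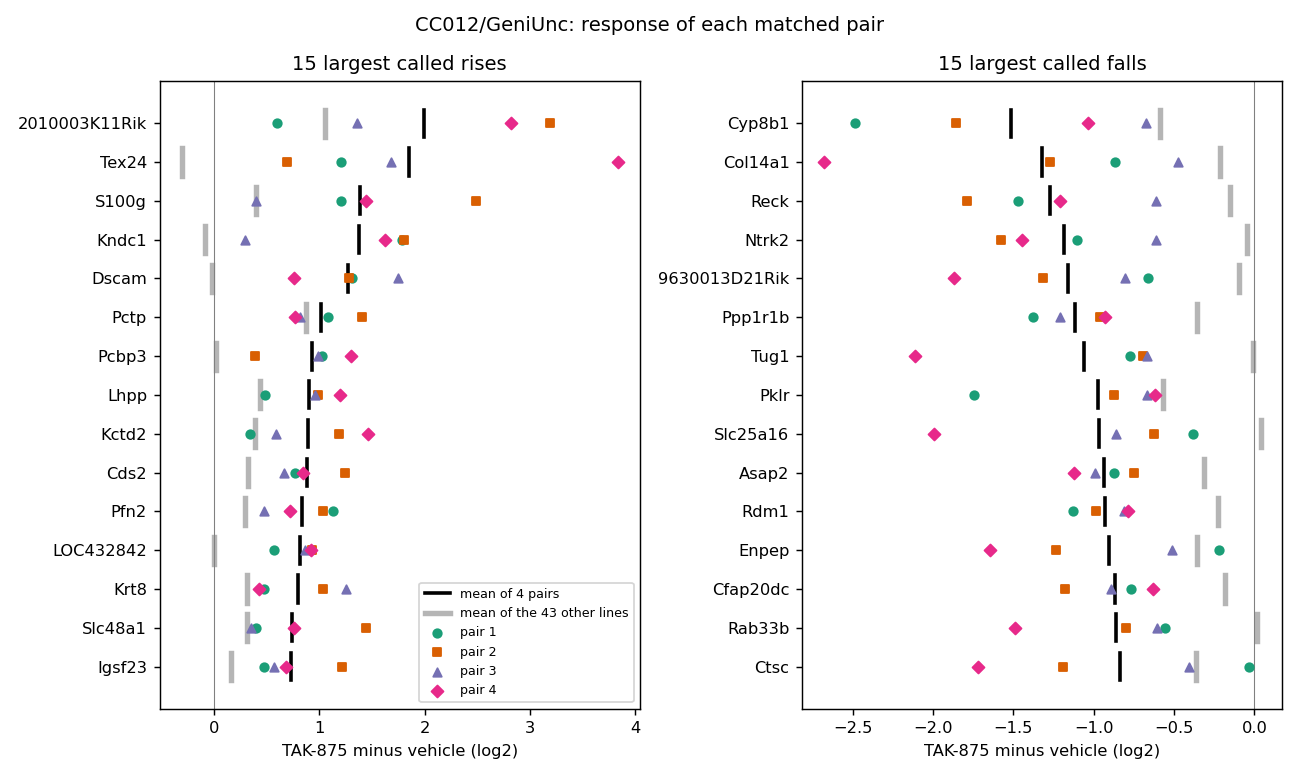
TAK-875 minus vehicle difference (log2) of each matched pair for the 15 largest called rises and the 15 largest called falls, with the mean of the 4 pairs as a black bar and the mean response of the 43 other lines as a grey bar. All pairs lie on 1 side of 0 for each gene, and pair 4 lies far out for Tex24, Col14a1, Tug1 and Slc25a16.

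The largest rise among called genes was that of 2010003K11Rik, a RIKEN gene model. It measured 7.27, 8.80, 7.36 and 8.87 in TAK-875 mice 1 to 4, against 6.67, 5.60, 6.01 and 6.05 in their vehicle partners. The groups did not overlap, and the mean response was 1.99 ± 1.22 log2, a 3.98-fold rise (SD, n = 4 pairs, limma adjusted p = 0.0254). Pairs 2 and 4 gave 3.19 and 2.82, while pairs 1 and 3 gave 0.60 and 1.36. The gene is also among the strongest risers elsewhere, with a mean response of 1.05 in the 43 other lines, 41 of which were higher with TAK-875. Without pair 4 its response was 1.72.

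Pctp, which carries phosphatidylcholine between membranes, measured 8.81, 9.29, 8.65 and 8.90 in TAK-875 mice and 7.72, 7.88, 7.83 and 8.13 in vehicle mice. Every TAK-875 mouse was above every vehicle mouse, with a 2.03-fold rise (1.02 ± 0.29 log2, SD, n = 4 pairs, limma adjusted p = 0.0128). All 43 other lines were higher too, by 0.88 on average, and CC012/GeniUnc stood 16th of 44 for this gene. Eci1, a mitochondrial isomerase for unsaturated fatty acids, measured 10.98, 11.26, 11.16 and 11.48 in TAK-875 mice and 10.67, 10.43, 10.72 and 10.77 in vehicle mice. Its rise of 0.57 ± 0.24 log2 (n = 4 pairs, limma adjusted p = 0.0133) stood beside a mean of 0.44 in the other lines. Acot8, a peroxisomal acyl-CoA thioesterase that also acts in bile acid synthesis, measured 8.70, 9.10, 8.62 and 9.14 in TAK-875 mice and 8.42, 7.94, 8.26 and 8.26 in vehicle mice. The groups did not overlap, and its response of 0.67 ± 0.42 log2 (limma adjusted p = 0.0248) was the third highest of 44 lines.

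Genes of the cytoskeleton and of lipid and heme handling were among the other rises. Krt8 measured 11.04, 11.41, 11.19 and 11.10 in TAK-875 mice, against 10.56, 10.37, 9.93 and 10.68 in vehicle mice, a 1.74-fold rise (0.80 ± 0.41 log2, limma adjusted p = 0.0286). Its probe set may also hybridise to unrelated transcripts. Cds2, which makes the CDP-diacylglycerol used for phosphoinositides, measured 8.24, 8.59, 8.14 and 8.31 in TAK-875 mice and 7.47, 7.35, 7.48 and 7.46 in vehicle mice. The response of Cds2 was 0.88 ± 0.25 log2 (limma adjusted p = 0.00433), through a probe set shared by related transcripts. Pfn2, an actin-binding profilin, rose by 0.84 log2, Slc48a1, a heme transporter, by 0.74, and Lhpp, a phosphatase, by 0.91, all in 4 of 4 pairs. Kctd2 rose by 0.90 and Igsf23, an immunoglobulin superfamily member, by 0.74. Gstt2, a glutathione transferase, rose by 0.72 ± 0.26 log2 (limma adjusted p = 0.0418), beside 0.62 in the other lines. Apoa1, the main protein of high-density lipoprotein, rose by 0.20 ± 0.10 log2, again through a probe set of that kind.

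A set of dim genes with roles best known outside the liver also rose. Tex24, a testis-expressed gene, S100g, a calcium-binding protein, Kndc1, a neuronal guanine nucleotide exchange protein, Dscam, a neuronal adhesion molecule, Pcbp3, an RNA-binding protein, and LOC432842 all had mean levels in the lowest 25% of genes. Their responses were 1.86, 1.39, 1.38, 1.28, 0.93 and 0.82 log2, in that order. S100g measured 4.36, 5.51, 3.65 and 4.32 in TAK-875 mice and 3.16, 3.02, 3.24 and 2.87 in vehicle mice. Kndc1 measured 4.64, 4.61, 3.39 and 5.21 in TAK-875 mice and 2.85, 2.81, 3.10 and 3.59 in vehicle mice, so its groups overlapped through pair 3. In all, 12 of the 65 called genes were that dim, and 53 genes were called when the dim genes were left out. Of 15 markers of pancreas, adipose tissue and muscle, also dim here, 0 were called and 7 were higher in all 4 pairs (12.9% of all genes were), with mean levels of 4.28 to 4.58 in TAK-875 mice and 4.12 to 4.30 in vehicle mice. The part of other tissue or of array background in these rises was not tested.

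Among the 32 genes called lower, Cyp8b1 had the largest change. It measured 8.45, 7.76, 10.06 and 9.28 in TAK-875 mice and 10.93, 9.62, 10.73 and 10.32 in vehicle mice. The TAK-875 mouse was below its partner in each pair although the groups overlapped, and the fall was 2.86-fold (-1.51 ± 0.82 log2, SD, n = 4 pairs, limma adjusted p = 0.0437). Pairs 1 and 2 carried the most, at -2.49 and -1.86, with -0.68 and -1.04 in pairs 3 and 4. The mean over the other lines was -0.59, with 36 of 43 lines lower. Cyp7a1, which catalyses the first and rate-limiting step of the classic pathway, was not called: it measured 5.24, 3.94, 7.91 and 4.61 in TAK-875 mice and 6.46, 5.92, 6.74 and 6.33 in vehicle mice, with mouse 3 alone above its partner (limma adjusted p = 0.589).

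Glucose and glycogen enzymes were represented by a gene each. Pklr measured 8.01, 7.57, 8.34 and 8.11 in TAK-875 mice and 9.75, 8.45, 9.01 and 8.72 in vehicle mice, a 1.97-fold fall without overlap (-0.98 ± 0.52 log2, n = 4 pairs, limma adjusted p = 0.0484). Pygl measured 10.79, 10.40, 10.91 and 9.95 in TAK-875 mice and 11.41, 11.37, 11.30 and 10.96 in vehicle mice, a 1.68-fold fall (-0.75 ± 0.30 log2, limma adjusted p = 0.047). The other lines averaged -0.57 for Pklr and -0.36 for Pygl. F7, coagulation factor VII, measured 9.38, 9.08, 9.46 and 9.21 in TAK-875 mice and 9.69, 9.69, 9.81 and 9.76 in vehicle mice, without overlap (-0.45 ± 0.15 log2, limma adjusted p = 0.047). Sdhd, a subunit of succinate dehydrogenase whose probe set may hybridise to unrelated transcripts, fell by 0.66 ± 0.11 log2 (limma adjusted p = 0.0346). The 4 Sdhd pairs lay between -0.81 and -0.58.

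Several further falls were large in pair 4. Tug1, a long noncoding RNA, measured 4.77, 4.86, 4.85 and 3.68 in TAK-875 mice and 5.54, 5.55, 5.52 and 5.79 in vehicle mice. Its mean level was in the lowest 25% of genes. The groups did not overlap, and its response of -1.06 ± 0.70 log2 (limma adjusted p = 0.0248) was -0.71 without pair 4. Slc25a16, a mitochondrial carrier, measured 7.24, 7.18, 7.12 and 5.75 in TAK-875 mice and 7.63, 7.81, 7.98 and 7.74 in vehicle mice. Its response was -0.97 with pair 4 and -0.62 without it. Col14a1, a fibril-associated collagen of fibroblasts, differed by -2.68 in pair 4 and by -0.87, -1.27 and -0.47 in pairs 1 to 3. Leaving out pair 4 moved 5 of the 65 responses by more than 1.5 times: Col14a1 was then -0.87 against -1.32 with all pairs, Slc25a16 as above, Ctsc, the protease cathepsin C, -0.54 against -0.84, Zadh2 -0.46 against -0.74, and Tex24 1.20 against 1.86. No other single pair moved any of the 65 responses by that much. Zadh2 was named after its values were seen, for this reason only.

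Falls that were even across pairs included Asap2, a GTPase-activating protein, and Rdm1, a protein related to DNA repair, each at -0.93 ± 0.16 log2. Rdm1 measured 5.44, 5.38, 5.51 and 5.70 in TAK-875 mice and 6.57, 6.37, 6.32 and 6.48 in vehicle mice, and its response was the lowest of 44 lines (limma adjusted p = 0.0164). Ppp1r1b, a phosphatase inhibitor best known from neurons, fell by 1.12 ± 0.21 log2, and Cfap20dc fell by 0.87 ± 0.23. Ntrk2, the receptor for brain-derived neurotrophic factor, measured 5.39, 4.41, 4.96 and 4.25 in TAK-875 mice and 6.49, 5.98, 5.57 and 5.69 in vehicle mice. Its fall was 2.28-fold without overlap (-1.19 ± 0.43 log2, limma adjusted p = 0.0418). Ppp1r1b, Cfap20dc and Ntrk2 had mean levels in the lowest 25% of genes, where signal is least above background. Other falls were less even. The response of 9630013D21Rik was -1.16 ± 0.55 log2, and -0.93 without pair 4. For Enpep, the aminopeptidase that cleaves angiotensin, it was -0.90 ± 0.66, and -0.65 without pair 4. For Rab33b, a Golgi GTPase, it was -0.86 ± 0.43, and -0.66 without pair 4.

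Promoter sequence was available for 26 of the genes called higher and 23 of those called lower. The 300-base windows, from RefSeq on GRCm38.p6, run from 250 bases before to 50 after a gene start. AGGTCA, the half-site to which PPARA and other nuclear receptors bind, was searched on both strands, where its reverse complement reads TGACCT. It was found in 6 of the 26 (23.1%) and in 6 of the 23 (26.1%), against 13.5% of 7421 promoters of measured genes. CACGTG, the E-box, which is its own reverse complement, was found in 2 of the 26 (7.69%) and 0 of the 23, against 10.5%. A match is a description of the letters and not a bound site. 2010003K11Rik, Pctp and Pklr are shown because they moved both here and in the other lines and hold a match, and Cyp2a12, without a match, because its response differed most clearly from the other lines. The windows are printed 5′ to 3′ on the strand of the gene, with the half-site in capitals. Pklr has a second listed start, which is not shown.
2010003K11Rik, chr19:4498534-4498833, minus strand: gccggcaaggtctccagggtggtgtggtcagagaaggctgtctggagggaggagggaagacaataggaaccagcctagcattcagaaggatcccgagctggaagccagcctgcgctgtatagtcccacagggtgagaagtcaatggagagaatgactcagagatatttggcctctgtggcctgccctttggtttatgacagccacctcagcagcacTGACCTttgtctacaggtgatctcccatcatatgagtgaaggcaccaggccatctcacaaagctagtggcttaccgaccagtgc
Pctp, chr11:90002845-90003144, minus strand: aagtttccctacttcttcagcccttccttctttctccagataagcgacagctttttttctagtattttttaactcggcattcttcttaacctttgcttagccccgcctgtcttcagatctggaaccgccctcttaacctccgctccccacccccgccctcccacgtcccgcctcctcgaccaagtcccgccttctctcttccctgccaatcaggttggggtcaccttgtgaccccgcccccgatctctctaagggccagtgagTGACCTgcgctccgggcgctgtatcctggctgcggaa
Pklr, chr3:89135892-89136191, plus strand: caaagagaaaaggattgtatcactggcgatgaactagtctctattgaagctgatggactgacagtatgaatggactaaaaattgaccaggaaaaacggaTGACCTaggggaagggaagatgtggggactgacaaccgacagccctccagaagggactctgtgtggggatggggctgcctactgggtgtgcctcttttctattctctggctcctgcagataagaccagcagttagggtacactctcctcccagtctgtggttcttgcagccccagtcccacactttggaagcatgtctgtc
Cyp2a12, chr7:27028840-27029139, plus strand: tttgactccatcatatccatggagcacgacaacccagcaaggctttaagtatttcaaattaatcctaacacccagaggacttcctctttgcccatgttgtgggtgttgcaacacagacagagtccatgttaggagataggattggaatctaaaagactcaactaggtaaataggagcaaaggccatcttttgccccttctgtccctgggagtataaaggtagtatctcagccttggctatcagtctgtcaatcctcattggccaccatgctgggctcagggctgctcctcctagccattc

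The next question was whether CC012/GeniUnc responded like the other lines. Of the 65 called genes, 57 had the sign of the mean of the other lines, and all 65 were larger in CC012/GeniUnc than that mean. The share of all genes with a shared sign was not counted. The genes were called on their CC012/GeniUnc response, so larger values in that line follow partly from the choice. Among all 44 lines, CC012/GeniUnc was highest for 9 of the called genes and lowest for 16. The 10 genes with the largest mean rise over the other lines were all higher in CC012/GeniUnc, 9 of them in all 4 pairs, and 2 were called, 2010003K11Rik and Pctp. The 10 with the largest mean fall were all lower, 6 of them in all 4 pairs, and 2 were called, Cyp8b1 and Pklr.

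Some of the strongest changes of the other lines did not pass in CC012/GeniUnc. Acot1, a PPARA-responsive acyl-CoA thioesterase, measured 8.04, 9.03, 8.36 and 9.44 in TAK-875 mice and 7.88, 7.32, 8.09 and 7.62 in vehicle mice. The differences were 1.71 and 1.82 in pairs 2 and 4 but 0.16 and 0.27 in pairs 1 and 3, and the mean of 0.99 (limma adjusted p = 0.411) compares with 1.38 in the other lines. Ehhadh, the peroxisomal bifunctional enzyme, measured 10.93, 11.32, 11.31 and 11.28 in TAK-875 mice and 10.59, 10.19, 10.55 and 10.39 in vehicle mice. Its groups did not overlap and its mean of 0.78 was close to the 0.81 of the other lines, yet the adjusted p was 0.0796. Dbp, a clock-controlled transcription factor, measured 8.01, 7.18, 8.67 and 6.13 in TAK-875 mice and 4.42, 5.07, 6.21 and 5.73 in vehicle mice (2.14 ± 1.32 log2, limma adjusted p = 0.172), with a mean of 1.30 elsewhere. Dio1, the deiodinase that activates thyroid hormone, lay between -1.05 and -0.89 in the 4 pairs (limma adjusted p = 0.265), with a mean of -1.21 in the other lines, all 43 of which were lower. Slc22a7, an organic anion transporter, lay between -1.21 and -1.03 (limma adjusted p = 0.215), with a mean of -0.84 elsewhere. For Dio1 and Slc22a7 the pairs of CC012/GeniUnc lay close together, while the standard errors of the fit, which pools the spread within all lines, were 0.43 and 0.44.

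**Figure D2:**
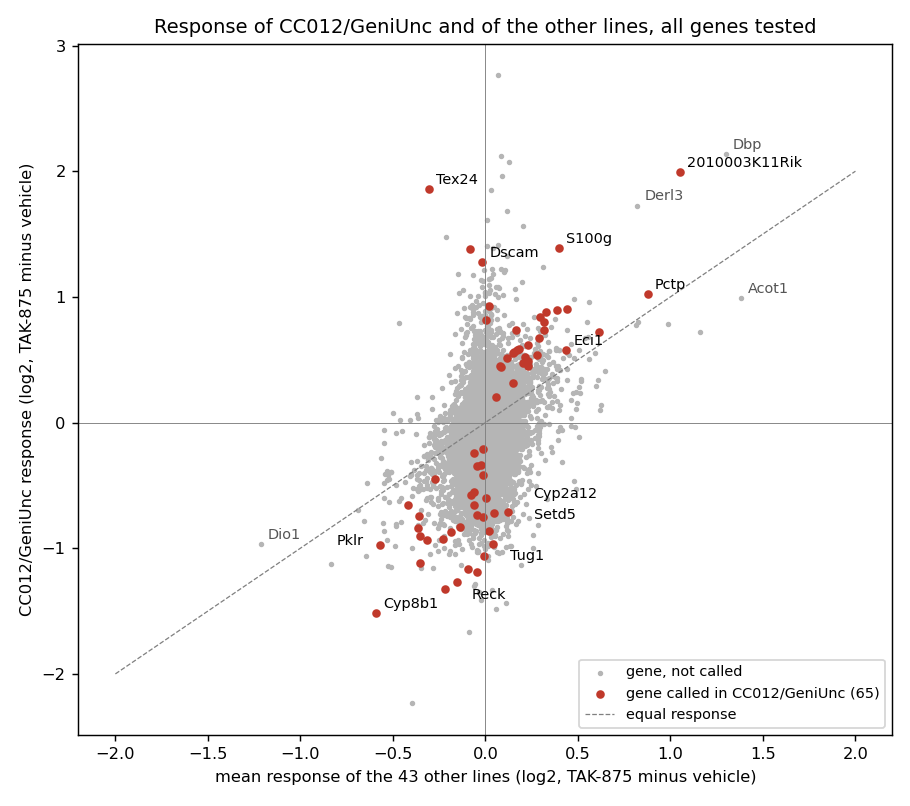
Response of CC012/GeniUnc (log2, TAK-875 minus vehicle, mean of 4 pairs) against the mean response of the 43 other lines for 9093 genes, with the 65 called genes in red and the dashed line at equal response. 2010003K11Rik, Pctp, Cyp8b1 and Pklr moved the same way in both, while Tex24, Dscam, Reck and Cyp2a12 lie near 0 or on the other side for the other lines.

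Tested directly, the response of CC012/GeniUnc differed from the mean of the 43 other lines for 6 genes (0.066% of 9093): Cyp2a12, Reck, Setd5 and Phf20l1 were lower and Tex24 and Dscam higher. Without pair 1, 2, 3 or 4 the number called was 1, 1, 2 and 1. Cyp2a12 passed without pair 1, 3 or 4, Tex24 without pair 2 and Reck without pair 3, while Setd5, Phf20l1 and Dscam passed in none of these fits. Each of the 6 kept its sign in those fits, which adds little because the 4 pairs of each gene shared a direction.

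Cyp2a12 gave the smallest adjusted p of both response tests. It measured 8.76, 7.66, 8.69 and 8.36 in TAK-875 mice and 8.88, 9.01, 9.24 and 9.21 in vehicle mice. The groups did not overlap, and the fall was 1.64-fold (-0.72 ± 0.52 log2, n = 4 pairs, limma adjusted p = 1.7e-05). That p rests on the spread pooled within all lines. With the 4 pairs fitted alone, 0 of the 65 genes were called, Cyp2a12 included. Pair 2 had the largest difference, at -1.35, and pair 1 the smallest, at -0.12. In the 43 other lines the mean response was 0.04 with an SD of 0.12 between lines and a range from -0.23 to 0.32, so CC012/GeniUnc was the lowest of 44. The difference from those lines was -0.76 log2 (limma adjusted p = 3.44e-06). It was -0.96, -0.82 and -0.72 without pair 1, 3 or 4 (limma adjusted p of 2.99e-08 to 0.00148), but -0.55 without pair 2, where the call was lost (limma adjusted p = 0.0944). The response itself was -0.51 without pair 2 and was not called there either. The gene was already low in this line before treatment: the vehicle mean was 9.09 ± 0.17 in CC012/GeniUnc and 11.40 ± 0.69 over the other lines (SD between line means), the lowest of 44 lines. With TAK-875 the mean was 8.37 ± 0.50 in CC012/GeniUnc and 11.44 ± 0.71 elsewhere. Low vehicle means of Cyp2a12 were not confined to this line. It averaged 9.34 in CC003/Unc and 9.36 in CC058/Unc, where the TAK-875 means were 9.48 and 9.30.

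Reck, a membrane-anchored inhibitor of matrix metalloproteinases, measured 4.79, 3.95, 4.55 and 3.37 in TAK-875 mice and 6.26, 5.74, 5.16 and 4.59 in vehicle mice. Both groups were widely spread and overlapped, yet each TAK-875 mouse was below its partner (-1.27 ± 0.50 log2, limma adjusted p = 0.00148). The difference from the other lines was -1.12 log2 (limma adjusted p = 0.0225). Its vehicle mean of 5.44 was the highest of 44 lines, against 3.87 in the others, and its TAK-875 mean of 4.17 stood 7th, against 3.72. The Reck response was the lowest of 44 lines, but CC052/GeniUnc also fell, from 4.37 with vehicle to 3.13 with TAK-875. Setd5, a chromatin protein of the SET domain family, measured 5.08, 5.10, 5.04 and 4.60 in TAK-875 mice and 5.70, 5.77, 5.74 and 5.44 in vehicle mice, all 4 pairs lying between -0.84 and -0.62. The other lines averaged 0.12, a difference of -0.83 log2 (limma adjusted p = 0.046), and the vehicle mean of 5.66 stood second of 44.

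Phf20l1, which binds methylated lysines, was a bright probe set with a small and even change. It measured 12.01, 11.91, 12.04 and 11.85 in TAK-875 mice and 12.29, 12.24, 12.32 and 12.32 in vehicle mice, a 1.26-fold fall without overlap. The difference from the other lines, which averaged -0.02, was -0.31 log2 (limma adjusted p = 0.0264). The response stood 43rd of 44 from high to low. CC061/GeniUnc fell further, from a mean of 12.21 with vehicle to 11.83 with TAK-875. The vehicle mean of 12.29 in CC012/GeniUnc was close to the 12.30 of the other lines.

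Both genes that were higher than elsewhere were dim, as was Reck. Tex24 measured 4.62, 3.95, 4.49 and 6.57 in TAK-875 mice and 3.41, 3.25, 2.81 and 2.73 in vehicle mice, and mouse 4 alone passed 5. The difference of Tex24 from the other lines was 2.16 log2 (limma adjusted p = 0.0225), and 1.5 without pair 4 (limma adjusted p = 0.844). The vehicle mean of Tex24 was 3.05 in CC012/GeniUnc and 4.10 in the other lines, a difference of -1.05 log2 (limma adjusted p = 0.0206), while its TAK-875 mean of 4.91 stood 5th of 44, against 3.79 elsewhere. The Tex24 response was the highest of 44 lines, but CC030/GeniUnc also rose, from 3.58 with vehicle to 4.88 with TAK-875. Dscam measured 4.54, 4.17, 4.70 and 4.13 in TAK-875 mice and 3.23, 2.89, 2.95 and 3.37 in vehicle mice, without overlap. Its difference was 1.29 log2 (limma adjusted p = 0.046), its TAK-875 mean of 4.39 was the highest of 44 lines, and its vehicle mean of 3.11 was among the 3 lowest. The Dscam response was the highest of 44 lines, but CC041/TauUnc also rose, from 2.88 with vehicle to 3.88 with TAK-875.

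The response and the vehicle level share the same 4 vehicle mice, so a vehicle value that is high or low by chance moves both. Of the 32 genes that fell, 25 had a CC012/GeniUnc vehicle mean above that of the other lines and 11 were among the 4 highest lines. Of the 33 that rose, 22 had a vehicle mean below the other lines and 8 were among the 4 lowest. Over all genes the median vehicle difference was 0.08 log2, and the shares of all genes at these vehicle positions were not counted. In all, 22 of the 65 were also called in the comparison of vehicle levels, as were 15.7% of all genes. How much of these responses comes from the vehicle mice was not tested.

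**Figure D3:**
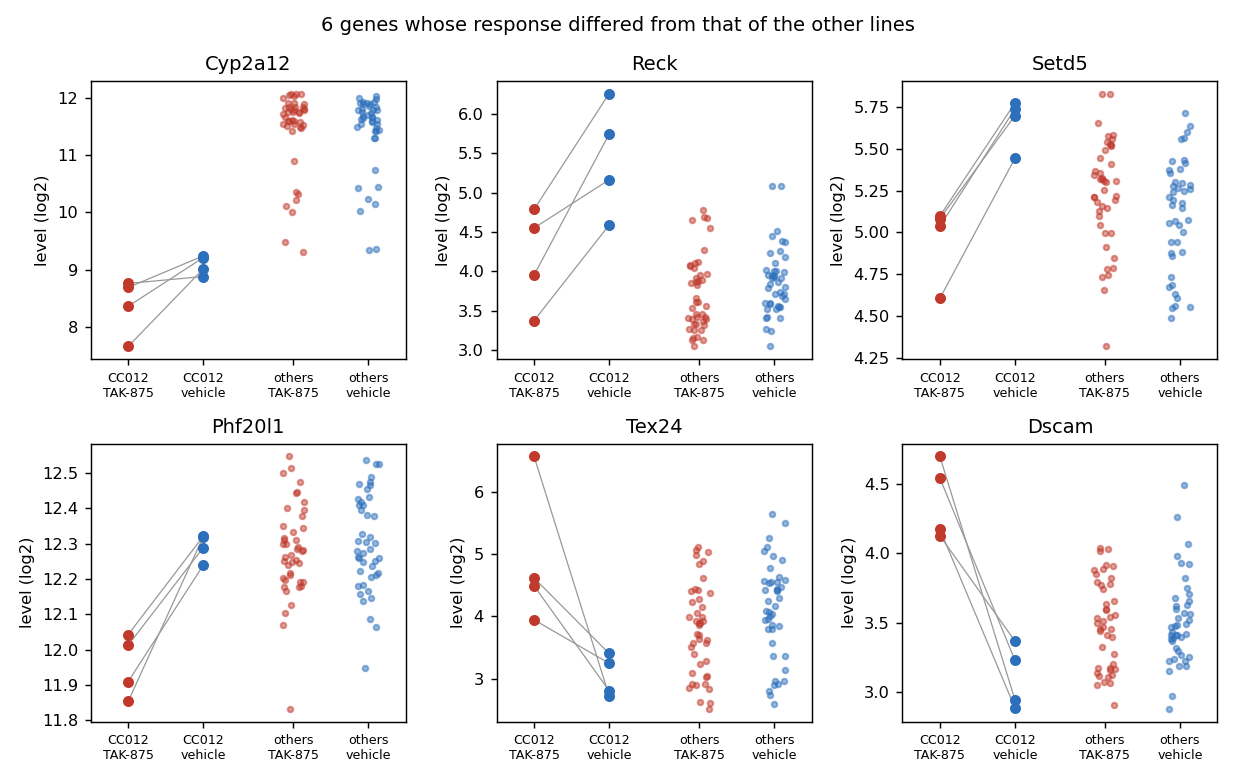
Level (log2) of the 6 genes whose response differed from the other lines, in each CC012/GeniUnc mouse with TAK-875 and with vehicle (pairs joined by lines) and as line means of the 43 other lines in both groups. Cyp2a12 is below the line means in all 8 mice, and Reck and Setd5 start high among vehicle mice.

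Gene lists were described by their counts and medians, beside a median response of -0.04 log2 over all genes. On centred arrays the median over all genes was 0.09, so centring moved lists and all genes alike. Over all genes, 0.363% were called higher and 0.352% lower. These shares are low, so few or 0 calls in a list say little about that list. Of 52 measured PPARA targets, 2 rose, Acot8 and Eci1, and 0 fell. Of the targets, 18 were higher in all 4 pairs, as were 12.9% of all genes, and 2 were lower in all 4. The median was 0.19, against 0.25 in the other lines, which put CC012/GeniUnc 28th of 44. The 4 pairs had medians of 0.04, 0.46, 0.19 and 0.20, and the median was 0.20 without pair 4 and 0.32 on centred arrays. Vnn1, a pantetheinase and PPARA target, measured 9.21, 9.36, 9.26 and 9.12 in TAK-875 mice and 7.74, 8.66, 8.52 and 8.91 in vehicle mice, without overlap but without passing the test (limma adjusted p = 0.294). Pdk4, the kinase that blocks pyruvate oxidation and another target, stood at -1.0 ± 0.99 log2 (limma adjusted p = 0.394), with 0.25 in the other lines.

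Of 39 proteasome genes, 0 were called, 18 were higher in all 4 pairs and 13 were higher at an unadjusted p under 0.05 (5.96% of all genes). Their median was 0.16, against 0.12 in the other lines, with pair medians between 0.12 and 0.30, and 0.29 on centred arrays. Psmd9 and Psmb5 were largest at 0.52 each (limma adjusted p = 0.156 and 0.345). None of 19 cell cycle genes was called, 7 were higher in all 4 pairs, and the list had a median of 0.20, the sixth highest of 44 lines, against -0.03 in the others, and 0.33 on centred arrays. Over all genes, 12.9% were higher in all 4 pairs. Aurkb, a mitotic kinase, measured 4.93, 4.78, 4.69 and 4.95 in TAK-875 mice and 4.30, 4.20, 4.05 and 4.18 in vehicle mice, without overlap (0.66 ± 0.08 log2, limma adjusted p = 0.227).

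Lists of clotting and complement proteins and of drug-metabolising enzymes had medians below that of all genes, and the difference was not tested. Over all genes, 0.352% were called lower and 14.9% were lower in all 4 pairs. Of 41 complement and coagulation genes, 1 fell, F7, and 0 rose, while 11 were lower in all 4 pairs and 13 were lower at an unadjusted p under 0.05 (9.11% of all genes). Their median was -0.22, against -0.12 in the other lines, with pair medians of 0.04, -0.27, -0.05 and -0.42, and -0.12 without pair 4. Of 48 cytochrome P450 genes, 2 fell, Cyp8b1 and Cyp2a12, and 15 were lower in all 4 pairs, with a median of -0.19 against -0.04 in the other lines and pair medians of -0.06, -0.26, 0.01 and -0.26. Cyp2c50 measured 10.57, 9.75, 11.43 and 10.32 in TAK-875 mice and 10.85, 10.87, 11.63 and 11.33 in vehicle mice (limma adjusted p = 0.111). Of 34 conjugating enzymes, Gstt2 rose, 0 fell and 11 were lower in all 4 pairs, with a median of -0.18 and pair medians of 0.12, -0.22, -0.03 and -0.24. On centred arrays these 3 medians were -0.09, -0.06 and -0.05, beside 0.09 over all genes.

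Bile acid genes were mixed, beside 0.363% of all genes called higher and 0.352% called lower. Of 23 synthesis genes, Acot8 rose and Cyp8b1 fell, with a median of -0.04 that was 0.09 on centred arrays. Of 19 genes of bile acid and organic anion transport, 0 were called, and the median of -0.23 was the third lowest of 44 lines, but pairs 1 and 3 had medians of 0.11 and 0.07 while pairs 2 and 4 had -0.36 and -0.48. Without pair 4 that median was -0.04. Among 26 genes that build fatty acids and triglycerides, Pklr fell and 0 rose, with a median of -0.07 that was 0.06 on centred arrays. Of 21 genes of gluconeogenesis and fasting, Pygl fell and 0 rose, with a median of -0.18 that was -0.03 without pair 4.

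Only 0.715% of all genes were called, so 0 calls in a list say little about it. Of 22 clock genes, 0 were called. Arntl, a core clock activator, measured 5.60, 6.22, 4.82 and 5.54 in TAK-875 mice and 6.87, 6.75, 6.60 and 6.55 in vehicle mice, without overlap (-1.15 ± 0.52 log2, limma adjusted p = 0.135). Npas2, its partner, measured 4.44, 4.49, 3.50 and 5.36 in TAK-875 mice and 6.24, 5.49, 5.13 and 5.17 in vehicle mice (limma adjusted p = 0.143). Both directions match those of the other lines, which averaged -0.51 for Arntl and -0.65 for Npas2. Stress pathways had 0 calls. The medians were 0.11 for 27 genes of the integrated stress response, 0.00 for 33 of the unfolded protein response, -0.02 for 30 NRF2 targets and -0.05 for 17 p53 targets. On centred arrays these 4 medians were 0.24, 0.13, 0.11 and 0.08, beside 0.09 over all genes. Without pair 4 they were -0.02, -0.06, -0.04 and -0.01 on the deposited scale. Of 25 immediate early genes 0 were called, although Egr1, a transcription factor induced by many stimuli, measured 5.81, 6.52, 5.62 and 4.63 in TAK-875 mice and 6.75, 7.44, 9.03 and 8.29 in vehicle mice. Its groups did not overlap, but the pairs were uneven (-2.23 ± 1.5 log2, limma adjusted p = 0.308). Derl3, a gene of endoplasmic reticulum-associated degradation, measured 7.67, 7.49, 6.63 and 7.91 in TAK-875 mice and 5.06, 5.60, 5.08 and 7.07 in vehicle mice (limma adjusted p = 0.165).

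Acute phase genes varied widely among mice of both groups. Saa2, a serum amyloid gene, measured 9.29, 7.28, 6.29 and 8.92 in TAK-875 mice and 4.25, 8.20, 5.09 and 11.07 in vehicle mice. Lcn2, lipocalin-2, measured 6.73, 6.75, 5.12 and 5.70 in TAK-875 mice and 4.20, 4.58, 4.18 and 7.83 in vehicle mice. Vehicle mouse 4 was the highest of the 8 for both genes. The list of 30 genes had 0 calls and pair medians of 0.53, -0.20, 0.08 and -0.80. Its median was -0.04, and 0.20 without pair 4.

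**Figure D4:**
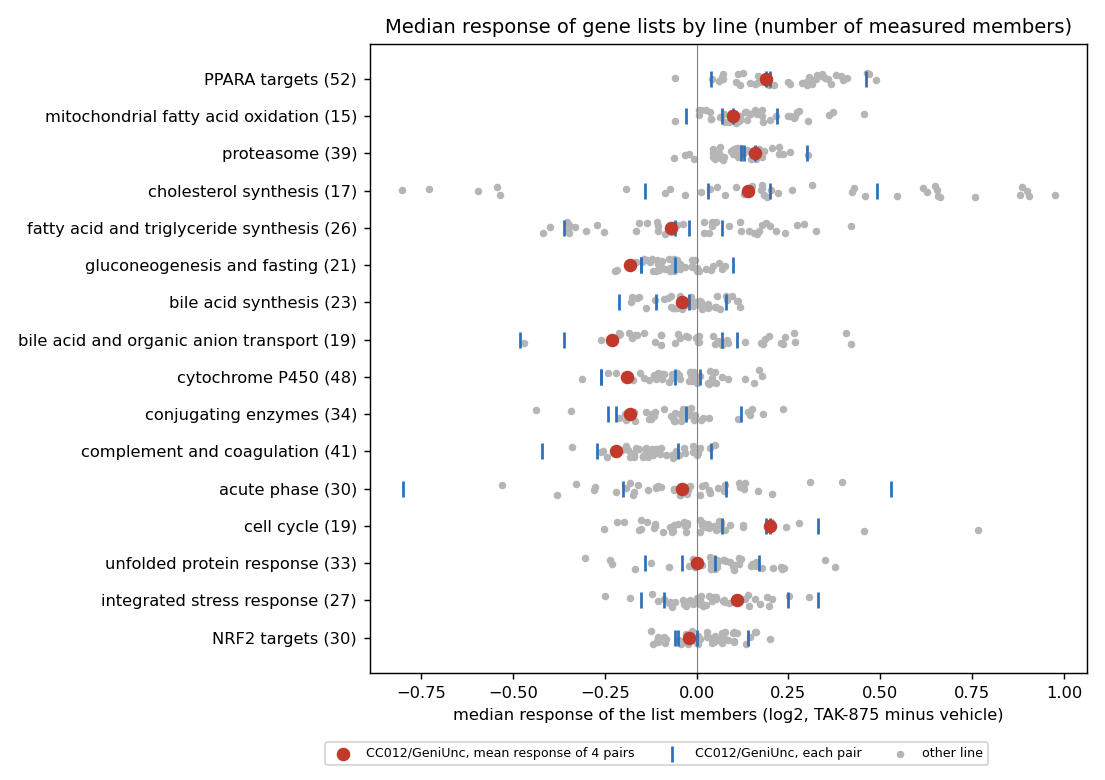
Median response (log2, TAK-875 minus vehicle) of the measured members of 16 gene lists in CC012/GeniUnc (red), in each of its pairs (blue ticks) and in each of the 43 other lines (grey). The red points lie within the spread of the other lines, and the ticks of the acute phase list run from -0.80 to 0.53.

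The last comparison set the untreated state of CC012/GeniUnc against the other lines through the vehicle mice. Of 9093 genes, 1429 were called (15.7%), 1031 higher in CC012/GeniUnc (11.3%) and 398 lower (4.38%). This balance also turned with scaling. The vehicle arrays of the line had medians of 6.09 to 6.12, and centred arrays gave 488 higher and 769 lower (38.8% higher), and a second quantile normalization 696 higher and 603 lower (53.6%), against 72.1% as deposited. Centring lowered each difference by 0.13 log2. The median size of the called differences was 0.53 log2, and 93 genes were higher and 74 lower by at least 1 log2. Without vehicle mouse 1, 2, 3 or 4 the number called was 901, 1016, 918 and 1010.

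Among the higher genes were enzymes of steroid and drug metabolism. Cyp2d13, a cytochrome P450, measured 11.21, 10.86, 11.29 and 11.11 in the 4 vehicle mice of CC012/GeniUnc and averaged 8.77 over the other lines, a difference of 2.34 log2 (limma adjusted p = 1.3e-34). Cyp17a1, the steroid hydroxylase and lyase, averaged 7.98 ± 0.32 against 5.89 ± 1.74, and Ugt3a2, a glycosyltransferase, 11.07 ± 0.20 against 7.90 ± 3.50. For Ugt3a2 the line means ran from 3.64 to 11.64 elsewhere, and CC012/GeniUnc stood 16th of 44. Mtmr11, a myotubularin-related protein, measured 7.47, 7.19, 7.26 and 7.50 and was the highest of 44 lines, against a mean of 4.38. Slc34a2, a sodium-phosphate cotransporter, was higher by 3.00 log2, Serpina12, the adipokine vaspin, by 2.32, Igsf23 by 2.07, Mfsd2a, a lysophospholipid transporter, by 1.81, and Acyp2, an acylphosphatase, by 1.78. Other lines had vehicle means as high. Slc34a2 averaged 8.88 in CC017/Unc against 8.71 in CC012/GeniUnc, and Serpina12 11.48 in CC022/GeniUnc against 11.00. Igsf23 averaged 7.18 in CC037/TauUnc against 6.95, and Acyp2 7.10 in CC063/Unc against 6.83.

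The largest difference was that of Hsd3b2, a hydroxysteroid dehydrogenase, which measured 3.66, 4.00, 3.87 and 4.22 in CC012/GeniUnc vehicle mice, against a mean of 8.52 ± 1.44 over the other lines (-4.58 log2, limma adjusted p = 1.2e-31). It was the lowest of 44 lines, and its TAK-875 mice measured 3.96, 3.66, 4.14 and 4.07. The difference was -3.97 log2 for Lcn2, although its vehicle mouse 4 stood at 7.83. It was -2.55 for Obp2a, an odorant-binding protein, -2.46 for Ccdc30, -2.44 for Gm19696, -2.40 for Pdxdc1, -2.34 for Rad51b, a recombination protein, and -2.16 for Crym, a thyroid hormone-binding protein. Cyp2a12 had a difference of -2.31 log2. Of the 10 genes lowest against the other lines, Cyp2a12 was the only one called in the response to TAK-875, and of the 10 highest, Igsf23 was.

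Genes of the major histocompatibility complex, which are highly polymorphic in mice, differed in both directions. H2-K1, a class I gene, measured 9.20, 8.58, 8.81 and 8.85 in CC012/GeniUnc vehicle mice, against a mean of 11.27 ± 1.38 in the other lines. H2-Ea, the alpha chain of a class II molecule that some inbred strains lack, measured 7.17, 7.29, 7.22 and 7.15, against 5.15 ± 0.96. Neither level was confined to this line. H2-K1 averaged 8.78 in CC070/TauUnc against 8.86 in CC012/GeniUnc, and H2-Ea 7.71 in CC060/Unc against 7.21. The class II genes H2-Aa and H2-Ab1 were higher by 1.33 and 1.27 log2. The probe sets of H2-K1, H2-Aa and H2-Ab1 can bind other transcripts, and these genes form a family of near copies, so their values are uncertain.

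Lists were counted in the vehicle comparison too, where the median over all genes was 0.08 log2, 11.3% of genes were higher and 4.38% were lower. On centred arrays the median over all genes was -0.05. Among the 26 genes that build fatty acids and triglycerides, 6 were higher and 1 lower, with a median of 0.53 that was 0.40 on centred arrays. Pklr was among the 6, at 0.69 log2 (limma adjusted p = 0.0307), and its vehicle mean was the fifth highest of 44. Of 39 proteasome genes, 8 were higher and 0 lower, with a median of 0.13 that was 0.00 on centred arrays. Of 48 cytochrome P450 genes, 12 were higher and 4 lower, and of 34 conjugating enzymes, 10 were higher and 6 lower. Of 30 acute phase genes, 1 was higher and 5 lower, with a median of -0.25. Of 52 PPARA targets, 7 were higher and 2 lower, shares near those of all genes.

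**Figure D5:**
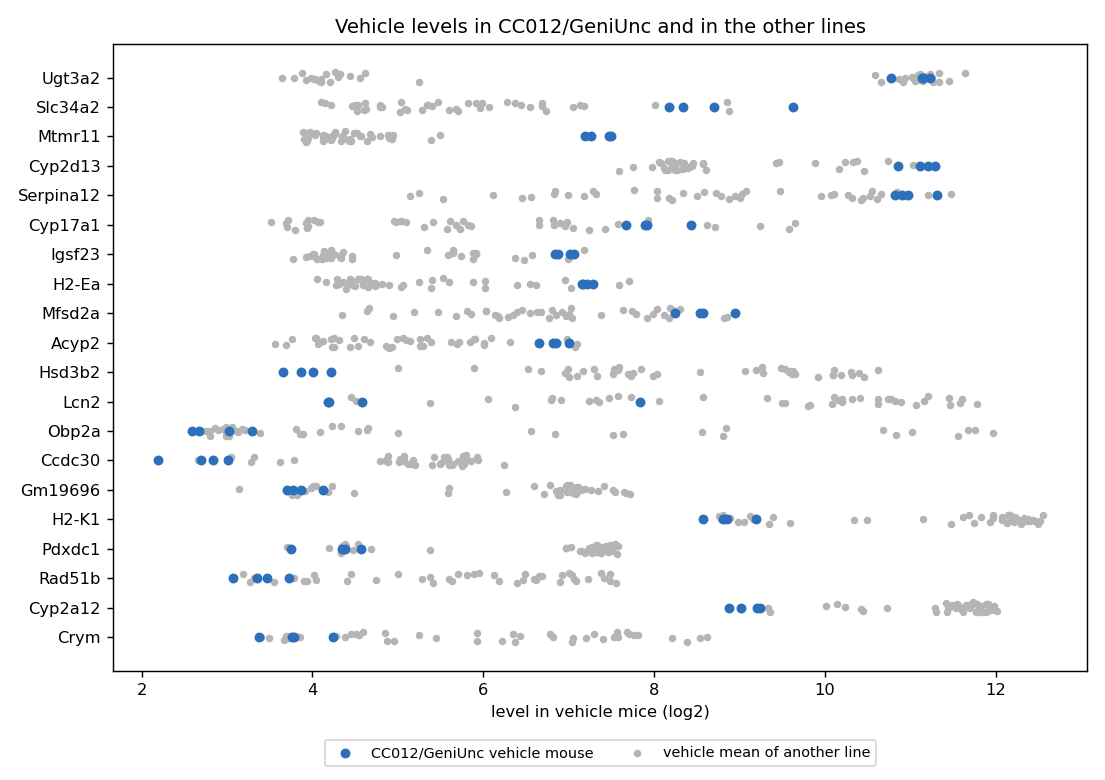
Level (log2) of the 10 most raised and 10 most lowered genes of the vehicle comparison in each CC012/GeniUnc vehicle mouse (blue) and as vehicle means of the 43 other lines (grey). Mtmr11 lies above and Hsd3b2 below every other line mean, while Ugt3a2 lies among the higher line means.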

How the data were processed

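Liver RNA of single mice was labelled from the 3′ end and hybridised to Affymetrix HT MG-430 PM arrays, per the labels' protocols. The deposited values are log2 expression from RMA, run by the authors with Affymetrix Power Tools as the submitters' processing notes name it, and they ran from 1.62 to 13.81 in all arrays. Sequence differences of the founder strains under the probes were not analysed here and can change a line's measured level.

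Of 16397 probe sets, 13083 had 1 gene in the platform annotation, 261 several and 3053 none, and the probe set with the highest mean stood for each of 9093 genes. TAK-875 minus vehicle was taken within the matched pairs that the labels give (171 pairs, 44 lines). Deviations from the group means correlated within CC012/GeniUnc pairs at -0.304, 0.315, 0.089 and 0.188. One mean per line was fitted with limma 3.58.1 in R 4.3.3 (eBayes with trend, 127 residual degrees of freedom). CC012/GeniUnc was tested against 0 and against the unweighted mean of the 43 other lines, and its vehicle mice against the mean of their vehicle levels. Tests were two-sided with Benjamini-Hochberg adjustment over all genes. Mice are the replicates. The number of arrays limits precision. The fits were tested on simulated data with normal errors of equal spread in every pair. The SDs across genes of the real CC012/GeniUnc pair differences ran from 0.387 to 0.695. In the simulated response, 9 of 50 changes of 0.5 log2 and 37 of 50 changes of 1 log2 were called, as were 6 of 8893 unchanged genes.

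Members and gene lists were chosen with earlier results of these data known. Genes named are the 15 largest called rises and falls, the genes differing from the other lines, the 10 largest changes of the other lines, the 10 highest and lowest vehicle differences, and called or leading members of the lists. Exceptions are stated. Alternatives covered scaling, probe set choice, dim genes, the trend, weights, the pairing and each pair left out.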

Additional observations from a re-analysis of the deposited data

Results flagged for a closer look

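A single mouse stood apart from the other 3 of its group in 6 of 68 groups of 4 examined among the named genes, where chance flags about 1 in 20. The rule sets the gap of that mouse against the range of its group, so a flagged gap can be small in log2. Tug1 measured 3.68 in TAK-875 mouse 4, against 4.77 to 4.86 in the other TAK-875 mice, and 5.79 in vehicle mouse 4, against 5.52 to 5.55 in the other vehicle mice. Slc25a16 measured 5.75 and Setd5 measured 4.60 in TAK-875 mouse 4, where the other TAK-875 mice had 7.12 to 7.24 and 5.04 to 5.10. Cds2 measured 7.35 in vehicle mouse 2, against 7.46 to 7.48. 9630013D21Rik measured 5.96 in 1 vehicle mouse, against 5.70 to 5.72.

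The response of CC012/GeniUnc differed from the mean of the other lines by -0.76 log2 for Cyp2a12, -1.12 for Reck, -0.83 for Setd5, -0.31 for Phf20l1, 2.16 for Tex24 and 1.29 for Dscam, each by a test of the difference itself. The direction was shared by 4 of 4 CC012/GeniUnc pairs for each gene.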

How the results depend on the processing

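Against 65 genes called in the response, 32 were called with the mean of a gene's probe sets (29 of the 65 among them), 29 without the variance trend (all among the 65) and 761 with array weights (all 65 included). With the 4 pairs fitted alone, 2 were called and 0 of the 65 were among them (1530 genes at an unadjusted p under 0.05). Without the pairing, the fit with no replicate block called 23 genes, all among the 65. Leaving out 1 pair gave 0 to 36. Against 6 genes that differed from the other lines, the count was 2 without the lowest 25% of genes, 3 with no replicate block, 3 without the trend and 3 after quantile normalization, and 1 to 2 with a pair left out. The vehicle comparison gave 901 to 1016 genes with a mouse left out, against 1429. Fewer samples enter those fits. The causes of the other shifts were not tested. Signs and calls under the alternatives were followed only for part of the named genes. These were the 15 largest called rises and falls, the 10 largest changes of the other lines each way, the genes named for a difference and the 10 highest and lowest vehicle differences. Among them 0 changed sign under any alternative, while 187 alternative values for the response lost their call. Genes named only as list members, Saa2 among them, were not followed. For called genes with a pair left out, the sign was fixed by the shared direction of the 4 pairs. No vehicle array correlated poorly enough to be left out, so that alternative gave no value for vehicle levels. Of the 65 genes, 12 were among those dim genes, where signal is least above background.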

Other observations

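Other lists had 0 calls in the response, where 0.715% of all genes were called, but lower medians than the -0.04 log2 of all genes. The 10 thyroid hormone targets had a median of -0.24, against -0.12 in the other lines, with pair medians of -0.57, -0.26, -0.19 and -0.58. The 21 glucocorticoid targets had a median of -0.22, with -0.68 in pair 4 and between -0.20 and 0.02 in pairs 1 to 3, and -0.13 without pair 4. The thyroid median was -0.35 without pair 4. The 29 targets of CAR and PXR, receptors that sense drugs, had a median of -0.21, against 0.03 in the other lines, and -0.12 without pair 4. These 3 medians were -0.11, -0.09 and -0.08 on centred arrays, where that of all genes was 0.09.

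In vehicle mice, 3 of 10 genes of antigen presentation were higher in CC012/GeniUnc than in the other lines and 5 were lower, against 11.3% and 4.38% of all genes. Of 22 markers of Kupffer cells and macrophages, 2 were higher, a share near that of all genes, and 4 were lower, with a median difference of -0.26 log2 that was -0.39 on centred arrays. The median over all genes was 0.08 as deposited and -0.05 on centred arrays.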
